A study of Mus musculus with 14 samples.

Results

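The 7 genes described here, Cdh1, Cdh2, Cdh5, Cdh11, Cdh13, Cdh17 and Cdh18, encode cadherins. They were taken by symbol from a table of 37681 mouse genes, in which all 7 were found, and 6 of them were expressed highly enough to be among the 17223 genes tested. The list was chosen by gene family with the diet differences of Cdh1 and Cdh18 in these same libraries known, so the measured values of the diet comparison had a part in it. Diet values of the 7 are therefore given as a description.

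Cadherins are calcium-dependent adhesion proteins that bind cadherins on the neighbouring cell. Classical cadherins such as Cdh1 (E-cadherin), Cdh2 (N-cadherin) and Cdh5 (VE-cadherin) hold catenins on their cytoplasmic tails, and the catenins connect the adherens junction to actin. In the liver, hepatocytes carry both E-cadherin, which is richest near the portal tract and in bile ducts, and N-cadherin, while VE-cadherin marks endothelium. Cdh13 (T-cadherin) has no cytoplasmic tail, is held in the membrane by a lipid anchor and binds adiponectin. Cdh11 belongs to fibroblasts and other mesenchymal cells, Cdh17 is the cadherin of intestinal epithelium, and Cdh18 is a type II cadherin known mainly from the nervous system.

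Polyadenylated RNA from the livers of 14 mice was sequenced, 7 fed high fat/high sucrose (HFHS) and 7 fed low fat/low sucrose (LFLS). The comparison asks which liver transcripts differ between the diets. For strain, genotype, sex, age and length of feeding nothing is stated in the labels. Sample titles carry a leading number. It is 1 for the first 4 libraries of each diet as numbered here and 2 for libraries 5 to 7. What this title number marks is not stated, and values within each number are given beside the pooled ones.

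Total counts were 18.2M to 52.8M per library (M standing for mega), with a median of 29.3M. Levels are counts scaled to a common library total (CPM) scaled by the trimmed mean of M values (TMM). The hepatocyte markers Alb, Ttr, Apoa1, Serpina1c and Tat summed to 53677 to 106691 CPM, so the hepatocyte transcripts of the labelled tissue were abundant in every library. Exocrine pancreas transcripts summed to 15.9 to 377 CPM in 13 libraries and to 1428 CPM in LFLS 2. In bulk liver, fewer cells of a type and less RNA per cell cannot be told apart.

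Per length of exon, Cdh2 was the most abundant of the 7 on both diets. Its level was 11.8 ± 0.717 CPM per kb (SD, n = 7) on LFLS and 12.2 ± 0.745 CPM per kb (SD, n = 7) on HFHS. On LFLS the next were Cdh1 at 8.29 ± 2.94 and Cdh5 at 8.06 ± 2.81 CPM per kb. These neighbours did not separate, since Cdh2 was above Cdh1 in 5 of 7 LFLS libraries and Cdh1 above Cdh5 in 4 of 7. Cdh18 followed at 1.16 ± 0.340 CPM per kb, then Cdh13 at 0.330 ± 0.110 and Cdh11 at 0.0415 ± 0.0136. From Cdh5 downward every gene lay above the next in 7 of 7 LFLS libraries with ranges that did not meet.

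The order differed on HFHS. Cdh5 came second at 7.00 ± 1.73 CPM per kb, above Cdh1 in 7 of 7 libraries. Cdh1 at 3.18 ± 0.979 and Cdh18 at 3.05 ± 0.585 CPM per kb were neighbours there, with Cdh1 higher in 4 of 7 libraries. Below them stood Cdh13 at 0.339 ± 0.0415 and Cdh11 at 0.0525 ± 0.0169 CPM per kb. Lengths came from a later annotation than the one counted, so the order, but not the diet comparison, depends on it.

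**Figure D1:**
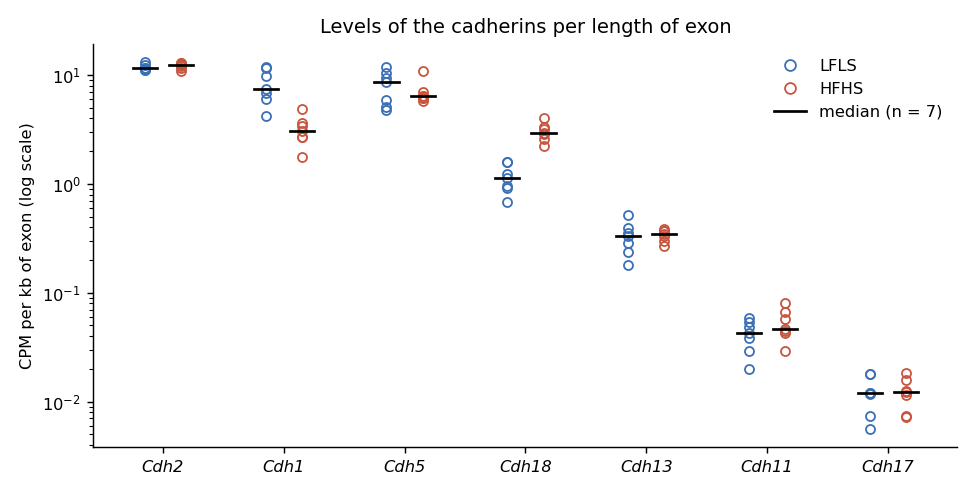
CPM per kb of exon (log axis) for the 7 cadherins in order of their LFLS mean, with 1 point per mouse and the median of each diet as a line. Cdh1 and Cdh18 lie apart on LFLS and side by side on HFHS. Cdh2 has the highest median on both diets, but on LFLS its points overlap those of Cdh1 and Cdh5. The Cdh17 points rest on 1 to 4 counts.

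Cdh1 was lower and Cdh18 higher on HFHS, and both passed the test over all genes. This makes 2 of the 6 tested members, 1 lower and 1 higher, by edgeR's quasi-likelihood test at a Benjamini-Hochberg adjusted p under 0.05. Over all 17223 genes 2.81% passed, 1.44% lower and 1.37% higher, and nothing is read from the members' count because this contrast was in view when they were listed. Median log2 change over the 6 tested members was 0.04, beside -0.01 over all tested genes. The other 4 tested members, Cdh2, Cdh5, Cdh11 and Cdh13, were not called.

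**Figure D2:**
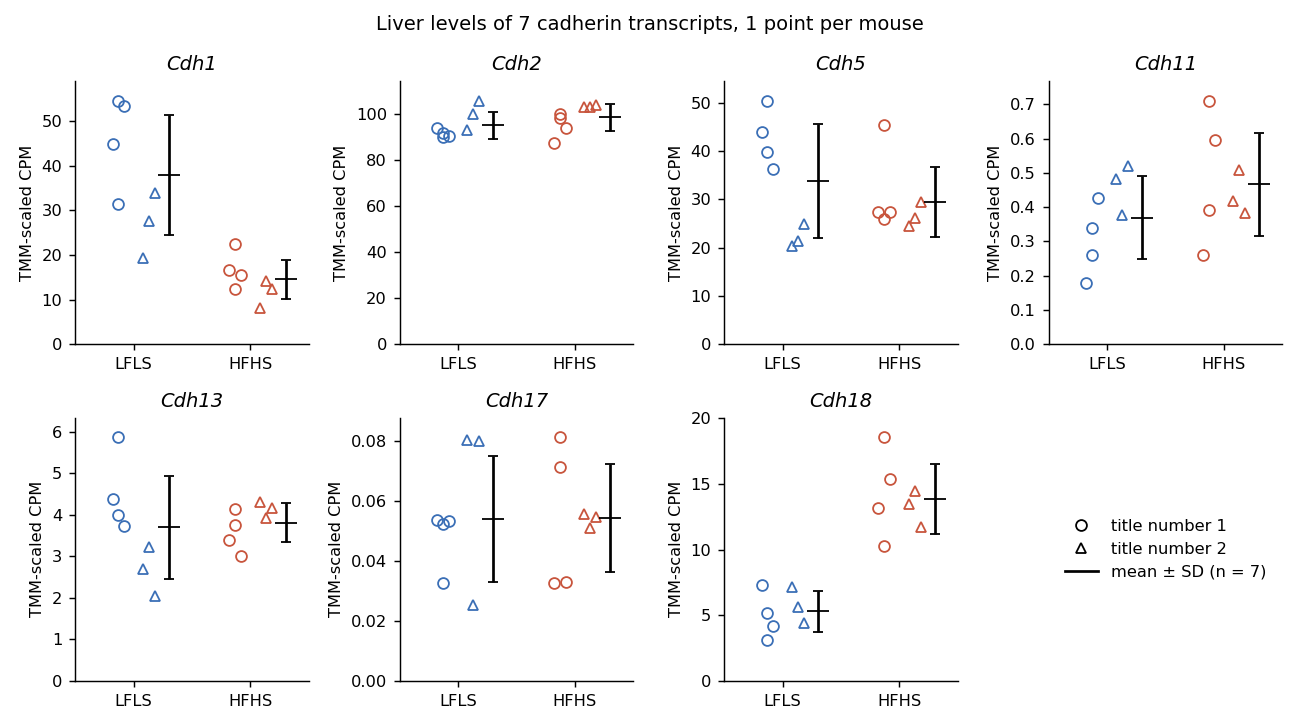
TMM-scaled CPM of each cadherin (vertical axis from 0, own scale per gene) by diet, with 1 point per mouse, circles for title number 1, triangles for title number 2 and mean ± SD beside them. The 7 HFHS points of Cdh18 lie above the 7 LFLS points, and 6 of 7 HFHS points of Cdh1 lie below all LFLS points.

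Cdh1 (ENSMUSG00000000303, chromosome 8) had 226 to 2520 counts per library. Its lowest, median and highest LFLS values were 19.3, 33.8 and 54.7 CPM, and on HFHS they were 8.03, 14.2 and 22.5 CPM. In 6 of 7 HFHS libraries Cdh1 lay below every LFLS library, and the exception was HFHS 4, which was above LFLS 6. The mean went from 37.9 ± 13.4 to 14.5 ± 4.48 CPM (SD, n = 7 each), 2.61-fold lower on HFHS, with a log2 change of -1.38 ± 0.24 (SE). Within title number 1 the change was -1.45 ± 0.22, and within number 2 it was -1.23 ± 0.25. The call held without any 1 of the 14 libraries, where the change ran from -1.52 to -1.27, and was lost among title number 2 libraries alone (3 against 3).

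Markers of the liver cells that carry E-cadherin differed among themselves beside Cdh1. Summed bile duct markers were 58.6 to 106 CPM on LFLS and 57.1 to 164 CPM on HFHS, overlapping between diets. Of 7 tested bile duct markers 1 fell by edgeR, the trefoil factor gene Tff3, from 10.9 ± 5.91 to 1.84 ± 2.07 CPM (SD, n = 7 each), and 0 rose. Over the 14 libraries the mean log2 CPM of these 7 correlated with Cdh1 at r = 0.84, and at 0.59 once the mean of each diet and title number was removed. Periportal hepatocyte markers had 0 of 10 called by edgeR (6 at an unadjusted p under 0.05, 4 by DESeq2, 3 by limma voom), with a median log2 change of -0.35. Their sum was 6861 to 15522 CPM on LFLS and 6486 to 9894 CPM on HFHS. After removal of those means they correlated with Cdh1 at -0.50, and the part of either marker list in the Cdh1 difference was not tested.

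Pancreatic acinar cells also carry E-cadherin. Of 11 pancreas markers 0 were called by edgeR, by DESeq2 or by limma voom, and 0 had an unadjusted edgeR p under 0.05. Their median log2 change was nevertheless -1.18. Their sum was 18.5 to 1428 CPM on LFLS (median 44.4) and 15.9 to 377 CPM on HFHS (median 24.3). The pancreas markers correlated with Cdh1 at 0.37 over the 14 libraries and at 0.74 after the group means were removed. LFLS 2, which holds the most pancreas transcript, had 53.5 CPM of Cdh1, and LFLS 4, at 80.8 CPM of summed pancreas markers, had 54.7 CPM. Without LFLS 2 the Cdh1 change was -1.28, and in the 7 libraries lowest in pancreas markers (3 LFLS, 4 HFHS) it was -1.10 ± 0.28 and not called. These were LFLS 1, 5 and 6 and HFHS 1, 2, 3 and 6. Title numbers were thus unevenly spread over the diets there, and Cdh1 also differed by title number, so the 2 cannot be told apart in this subset. In those 7 libraries edgeR called 6 genes in all. The part of pancreas transcript in the Cdh1 difference was not tested.

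Cdh18 (ENSMUSG00000040420, chromosome 15) had 79 to 913 counts per library. Its lowest, median and highest LFLS values were 3.12, 5.20 and 7.31 CPM, against 10.3, 13.5 and 18.6 CPM on HFHS. Every HFHS library was above every LFLS library, a separation that 1.65% of the tested genes showed in either direction and 0.854% in this one. The mean went from 5.29 ± 1.55 to 13.9 ± 2.66 CPM (SD, n = 7 each), 2.62-fold higher on HFHS, with a log2 change of 1.39 ± 0.18 (SE). Within title number 1 it was 1.54 ± 0.27 and within number 2 1.22 ± 0.18. The call held without any 1 library, with changes of 1.29 to 1.49, and was lost in the 7 libraries lowest in pancreas markers, where the change was 1.62 ± 0.29.

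Reads of overlapping genes cannot be told apart without strand. The 2 genes of the count table that overlap Cdh18 in the GENCODE annotation, Hnrnpa1l2-ps2 and Gm19840, never exceeded 3 counts, where 1 is the lowest value of the table. The antisense gene Gm49191 and the snoRNA gene Gm24656 also overlap it and have no row in the table, so reads from them were not measured apart from Cdh18.

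One annotated start region of Cdh18 is shown, since its diets did not overlap and the promoter table used here holds it. These are the 250 bases before the start site given by RefSeq on GRCm38.p6, plus strand, chr15:23036213-23036462, with capitals marking the match to CCAAT:

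Cdh18: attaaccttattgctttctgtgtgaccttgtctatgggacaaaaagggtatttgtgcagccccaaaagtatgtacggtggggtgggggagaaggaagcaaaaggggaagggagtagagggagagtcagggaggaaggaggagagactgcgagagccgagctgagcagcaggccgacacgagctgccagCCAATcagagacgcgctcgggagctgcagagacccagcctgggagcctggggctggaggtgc

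The 1 match to CCAAT, searched on both strands as CCAAT or ATTGG, starts 62 bases before the start site. Of 32851 such windows 33.8% hold it. CANNTG, the E-box letters, which read the same way on both strands, had 0 matches here, against at least 1 in 66.2% of windows. TATAAA on either strand also had 0, against 12.4% of windows. Of 7 Cdh18 transcripts in GENCODE 2 start at this site, 1 starts within 10 bases of it, 1 starts 487 kb upstream and 3 start downstream. Which start the liver used was not measured, and the letters show no bound factor.

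The ratio of Cdh18 to Cdh1 did not overlap between diets. Both genes were listed with their opposite diet differences known, so this separation follows from that choice and is only a description. Per kb of exon, Cdh18 ran at 0.0791 to 0.375 of Cdh1 on LFLS and at 0.459 to 1.69 of Cdh1 on HFHS, with medians of 0.131 and 0.994. Once the mean of each diet and title number was removed, the pair correlated at -0.24 over the 14 libraries. Cdh1 relative to Cdh2, the other hepatocyte cadherin, ran at 0.365 to 1.05 per kb on LFLS and 0.137 to 0.396 on HFHS. That ratio overlapped between the diets.

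Cdh2 (ENSMUSG00000024304, chromosome 18) was the steadiest member. It had 90.2, 93.0 and 106 CPM as its lowest, median and highest LFLS values and 87.5, 100.1 and 104 CPM on HFHS. The diets overlapped, with a log2 difference of 0.05 ± 0.07 (SE). Its coefficient of variation was 6.08% on LFLS and 6.09% on HFHS, against 30.8% to 35.5% for Cdh1. Cdh2 was also alike within title numbers, at 0.07 ± 0.09 and 0.06 ± 0.08.

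Cdh5 (ENSMUSG00000031871, chromosome 8), of endothelial adherens junctions, had 20.3, 36.3 and 50.5 CPM as its lowest, median and highest LFLS values and 24.4, 27.3 and 45.5 CPM on HFHS. The diets overlapped throughout, and the log2 difference of -0.20 ± 0.21 (SE) was not called. HFHS 1 stood alone at 45.5 CPM, above the 24.4 to 29.4 CPM of the other 6 HFHS libraries. The 11 endothelial markers, of which 0 were called for diet by edgeR (0 at an unadjusted p under 0.05, 0 by DESeq2 and 0 by limma voom), summed to 541 CPM in HFHS 1 and to 363 to 398 CPM in the other HFHS libraries. Cdh5 amounted to 5.91% to 8.85% of that sum on LFLS and 6.41% to 8.40% on HFHS. Its correlation with the markers' mean log2 CPM was 0.91 over the 14 libraries and 0.87 after the group means were removed. Stellate cell and fibroblast markers reached 0.80 with Cdh5 in the same way.

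Cdh13 (ENSMUSG00000031841, chromosome 8) had 2.04, 3.73 and 5.87 CPM as its lowest, median and highest LFLS values and 3.02, 3.92 and 4.31 CPM on HFHS. The HFHS values lay inside the LFLS range, and the log2 difference was 0.03 ± 0.19 (SE). The spread narrowed from a coefficient of variation of 33.5% on LFLS to 12.2% on HFHS, a difference that was not tested. Cdh13 followed the endothelial markers less closely than Cdh5 did, at 0.72 over the 14 libraries and 0.60 after the group means were removed. With 10 pericentral hepatocyte markers Cdh13 was at 0.73 and 0.45, so over the 14 libraries the endothelial list did not stand out. These libraries share their depth scaling, so the correlations are descriptive.

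**Figure D3:**
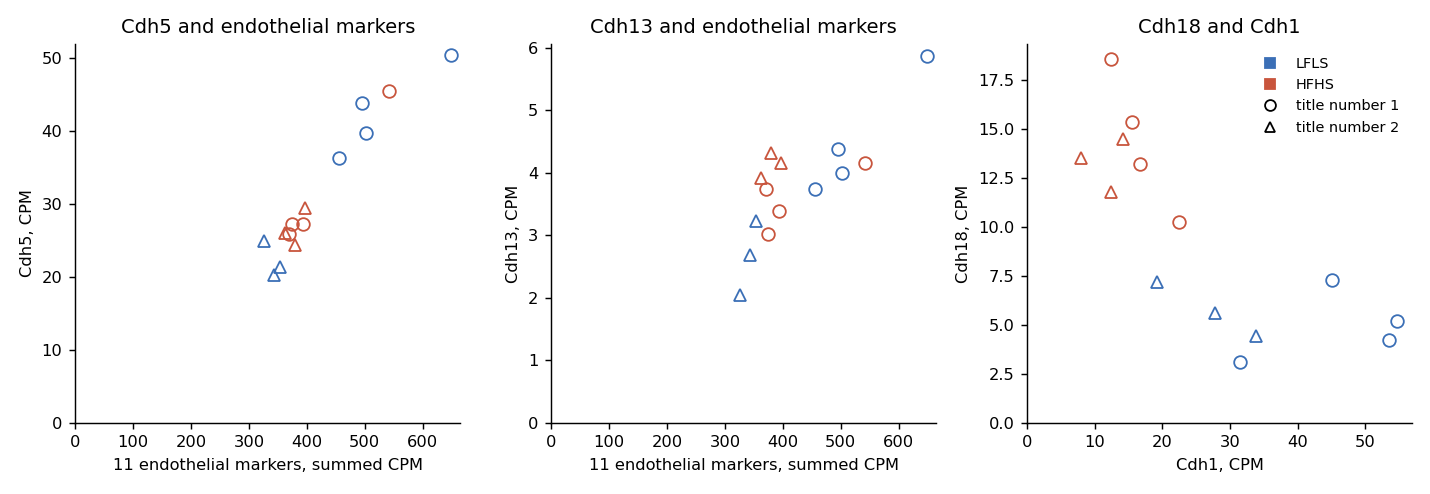
Each point is 1 mouse, coloured by diet and shaped by title number: Cdh5 and Cdh13 (CPM) against the summed CPM of 11 endothelial markers, and Cdh18 against Cdh1 (CPM), all axes from 0. Cdh5 climbs with the endothelial sum across both diets (r of log2 values 0.91), and in the last panel all HFHS points lie higher in Cdh18 than the LFLS points.

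The last pair was scarce. Cdh11 (ENSMUSG00000031673, chromosome 8), of mesenchymal cells, had 8 to 15 counts per LFLS library and 7 to 35 per HFHS library, or 0.370 ± 0.121 and 0.467 ± 0.151 CPM (SD, n = 7 each). The log2 difference was 0.41 ± 0.27 (SE) and was not called. HFHS 1, the highest at 0.711 CPM, was also the library with the most stellate cell and fibroblast transcript, 808 CPM against 320 to 431 CPM in the other 13. It was also highest in summed bile duct (164 CPM) and mesothelium (6.97 CPM) markers. Cdh11 correlated with the stellate cell and fibroblast markers at r = 0.21 over the 14 libraries and at 0.56 after the group means were removed. With 4 mesothelium markers it was at 0.68 and 0.70. Cdh17 (ENSMUSG00000028217, chromosome 4), of intestinal epithelium, had 1 to 3 counts on LFLS and 1 to 4 on HFHS. The lowest value in the table is 1. Cdh17 exceeded it in some libraries, by at most 3 counts, so a trace was counted but too little to be tested at this depth. The intestinal regulators Cdx1 and Cdx2 stood at 1 in all libraries.

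The title number, which was not used to list the members, was tested in a fit with diet and number together. Cdh1 was lower in title number 2, by a log2 change of -0.66 ± 0.18 (SE) and an adjusted p of 0.0163 (edgeR quasi-likelihood, Benjamini-Hochberg over 17223 genes). Cdh5 was lower too, by -0.59 ± 0.16 with an adjusted p of 0.0156 in the same edgeR test. These were 2 of 6 tested members, with 0 higher, while 28.8% of all genes passed and 14.8% were lower in number 2, so the members' share was near the background. The other 4 tested members had adjusted p values of 0.120 to 0.896 by edgeR.

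By library the title number showed on both diets for Cdh1 and mainly on LFLS for Cdh5. LFLS libraries of number 1 had 31.5 to 54.7 CPM of Cdh1 and those of number 2 19.3 to 33.8 CPM. On HFHS Cdh1 was 12.4 to 22.5 CPM in number 1 and 8.03 to 14.2 CPM in number 2. Cdh5 was 36.3 to 50.5 CPM in LFLS number 1 and 20.3 to 24.9 CPM in LFLS number 2, which did not overlap. On HFHS it was 25.9 to 45.5 and 24.4 to 29.4 CPM. Without LFLS 6 the Cdh1 difference between numbers was -0.54 with an adjusted p of 0.0507 by edgeR, with alternatives spanning 0.00394 to 0.0507.

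Cell type markers are given beside this. Of 11 endothelial markers 4 were lower in number 2 by edgeR, Pecam1, Stab1, Stab2 and Eng, with log2 changes of -0.34 to -0.59, and 0 were higher. Of 10 stellate cell and fibroblast markers 4 were lower as well. Of 6 Kupffer cell markers 4 were lower, with a median over the 6 of -0.56. Of 10 periportal hepatocyte markers 6 were higher in number 2 and 0 lower, and of 10 pericentral markers 3 were higher and 3 lower. Over all genes 13.9% were higher in number 2. The part of these markers in the Cdh1 and Cdh5 differences between numbers was not tested.

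Whether the diet difference itself depended on the title number was tested by their interaction. By edgeR 0 of 6 members passed, beside 0.883% of all genes. At an unadjusted p under 0.05 there were 2, Cdh13 and Cdh5, and the DESeq2 Wald test passed 1, Cdh13. For Cdh13 the diet difference was -0.31 ± 0.18 (log2, SE) in number 1 and 0.64 ± 0.19 in number 2. LFLS number 2 libraries had 2.04 to 3.23 CPM of Cdh13 and HFHS number 2 libraries 3.92 to 4.31 CPM, while in number 1 the ranges of 3.73 to 5.87 and 3.02 to 4.15 CPM overlapped.

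The interaction of Cdh13 was 0.96 ± 0.27 with an adjusted p of 0.0765 by edgeR, and over its alternatives, which include DESeq2, adjusted p ran from 0.0242 to 0.205. It passed with DESeq2 (0.0242) and by edgeR without LFLS 4 (0.0480) or HFHS 1 (0.0460). For Cdh5 the diet difference was -0.42 ± 0.19 in number 1 and 0.27 ± 0.11 in number 2. Its interaction was 0.70 ± 0.26 with an adjusted p of 0.137 by edgeR, and it passed without HFHS 1 (0.93, adjusted p 0.0256, where alternatives spanned 0.0256 to 0.304). For Cdh1 the interaction was 0.23 ± 0.36 and for Cdh18 -0.31 ± 0.37, with edgeR adjusted p values of 0.739 and 0.643.

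Other genes of cell junctions were mostly not called for diet. Of 92 symbols in 5 lists 91 were in the table and 60 were tested, of which 1 rose, 3 fell and 56 were not called, so 6.67% passed beside 2.81% of all genes. Their median log2 change was -0.02, beside -0.01 over all tested genes. The 31 untested genes had at most 23 counts in any library.

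Among 21 further cadherins and cadherin-related genes 8 were tested, 1 fell, 0 rose and the median log2 change was -0.21. The gene that fell was Cdhr5, a microvillus protocadherin that links the tips of the brush border. Its lowest, median and highest LFLS values were 46.0, 53.8 and 69.0 CPM against 33.7, 38.7 and 45.1 CPM on HFHS, without overlap. Over all tested genes 0.795% were lower on HFHS without overlap. Log2 change was -0.50 ± 0.10 (SE) with an adjusted p of 0.0170 (edgeR quasi-likelihood, Benjamini-Hochberg), and -0.59 and -0.34 within title numbers 1 and 2. The call was lost without HFHS 2 (edgeR adjusted p 0.0515, and 0.000163 to 0.600 across alternatives). Cdh24, a type II cadherin at 0.608 CPM, differed by -0.70 ± 0.23, and Cdh23, of the hair cell tip link, by -0.08 ± 0.21.

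Of 20 catenin and adherens junction genes 18 were tested, 1 fell and 0 rose by edgeR and the median was -0.08. DESeq2 called 2 of them and limma voom 4. Pvrl2, which encodes nectin-2, an immunoglobulin-like adhesion protein of the adherens junction, had 61.7, 76.6 and 87.1 CPM as its lowest, median and highest LFLS values. On HFHS it had 43.9, 47.0 and 59.8 CPM, below every LFLS library in 7 of 7, a separation that 0.795% of tested genes showed. Log2 change was -0.64 ± 0.09 (SE) with an adjusted p of 0.00334 (edgeR quasi-likelihood, Benjamini-Hochberg), and -0.74 and -0.47 within title numbers 1 and 2. The call held without any 1 library. In the 7 libraries lowest in pancreas markers, where edgeR called 6 genes in all, the log2 change was -0.75 for Pvrl2, -0.56 for Cdhr5, -0.38 for Fat1 and 0.71 for Snai2, and these 4 related genes were not called.

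Pvrl3, nectin-3, differed the other way by 0.39 ± 0.11, with 53.0 ± 8.63 CPM on LFLS and 69.5 ± 7.86 CPM on HFHS (SD, n = 7 each). It was not called by edgeR (adjusted p 0.0734) but was with the title number as a block (0.0196) and by DESeq2 (0.0293), and 0.00395 to 0.799 across alternatives. Beta-catenin (Ctnnb1), the partner of classical cadherin tails, stood at 234 ± 21.4 and 221 ± 10.1 CPM and differed by -0.08 ± 0.08. The p120 catenin gene Ctnnd1, whose protein keeps cadherins at the membrane, differed by -0.14 ± 0.08.

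Of 13 desmosomal genes 7 were tested and 0 were called by edgeR, with 1 at an unadjusted p under 0.05, Pkp2, and 1 called by limma voom with quality weights, Dsg1c. The median over the 7 was 0.23. Dsg2, the desmosomal cadherin with the highest level here, had 134 ± 16.9 and 132 ± 17.0 CPM, a difference of -0.02 ± 0.10. Desmoplakin (Dsp) differed by 0.04 ± 0.17 in all libraries, by -0.25 ± 0.17 within title number 1 and by 0.56 ± 0.10 within number 2, where edgeR called it (adjusted p 0.0406, and 0.0406 to 0.995 across alternatives). The plakophilin gene Pkp2 differed by 0.23 ± 0.10 and Dsg1c by 0.73 ± 0.40.

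Of 24 large atypical cadherins and protocadherins 23 were in the table and 15 tested, of which 1 fell and 0 rose by edgeR, with a median of -0.01. DESeq2 called 2 of them and limma voom 4. Fat1, a giant cadherin of planar polarity and growth control, went from 60.9 ± 10.1 to 43.0 ± 4.15 CPM (SD, n = 7 each), below every LFLS library in 6 of 7 HFHS libraries. Log2 change was -0.50 ± 0.11 (SE) with an adjusted p of 0.0252 (edgeR quasi-likelihood, Benjamini-Hochberg), and -0.61 and -0.29 within title numbers 1 and 2. The call was lost without LFLS 2, LFLS 4, HFHS 2 or HFHS 7 (edgeR adjusted p 0.0544 to 0.0656), and 0.000764 to 0.678 across alternatives. Protocadherin Pcdh1 differed by -0.71 ± 0.24 (edgeR adjusted p 0.117) in all libraries, by -0.99 ± 0.16 within title number 1 and by -0.05 ± 0.10 within number 2. It was called by edgeR within title number 1 (adjusted p 0.0170) or with the title number as a block (0.0342), by DESeq2 (0.0474) and by limma voom (0.0127), and alternatives spanned 0.0127 to 0.837. Pcdh15 differed by 0.00 ± 0.07.

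Of 14 genes that process cadherins or regulate their transcription 12 were tested, 1 rose, 0 fell and the median was 0.15. Snai2, which encodes the zinc finger repressor Slug, known from other systems as a repressor of Cdh1, had 1.60, 2.05 and 3.85 CPM as its lowest, median and highest LFLS values. On HFHS it had 3.07, 3.68 and 6.29 CPM, and 3 of 7 HFHS libraries were above every LFLS library. Log2 change was 0.95 ± 0.22 (SE) with an adjusted p of 0.0331 (edgeR quasi-likelihood, Benjamini-Hochberg), and 0.74 and 1.24 within title numbers 1 and 2. It lost the call without LFLS 2, 3, 4, 5 or 7 or HFHS 1, 2, 5 or 6 (edgeR adjusted p 0.0504 to 0.0744), and 0.00166 to 0.678 across alternatives. Twist1, another repressor, had 4 to 24 counts per library and differed by 0.48 ± 0.20 (edgeR adjusted p 0.196). In the same list Snai1 differed by -0.21 ± 0.26, Zeb1 by 0.13 ± 0.08 and Zeb2 by 0.32 ± 0.14, none called by edgeR. The convertase gene Furin, whose protein trims cadherin precursors, differed by -0.37 ± 0.20. Furin was called by edgeR within title number 1 alone (-0.57 ± 0.14, adjusted p 0.0417, with alternatives spanning 0.0417 to 0.866). The gamma-secretase subunit gene Psen2 differed by -0.31 ± 0.21.

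**Figure D4:**
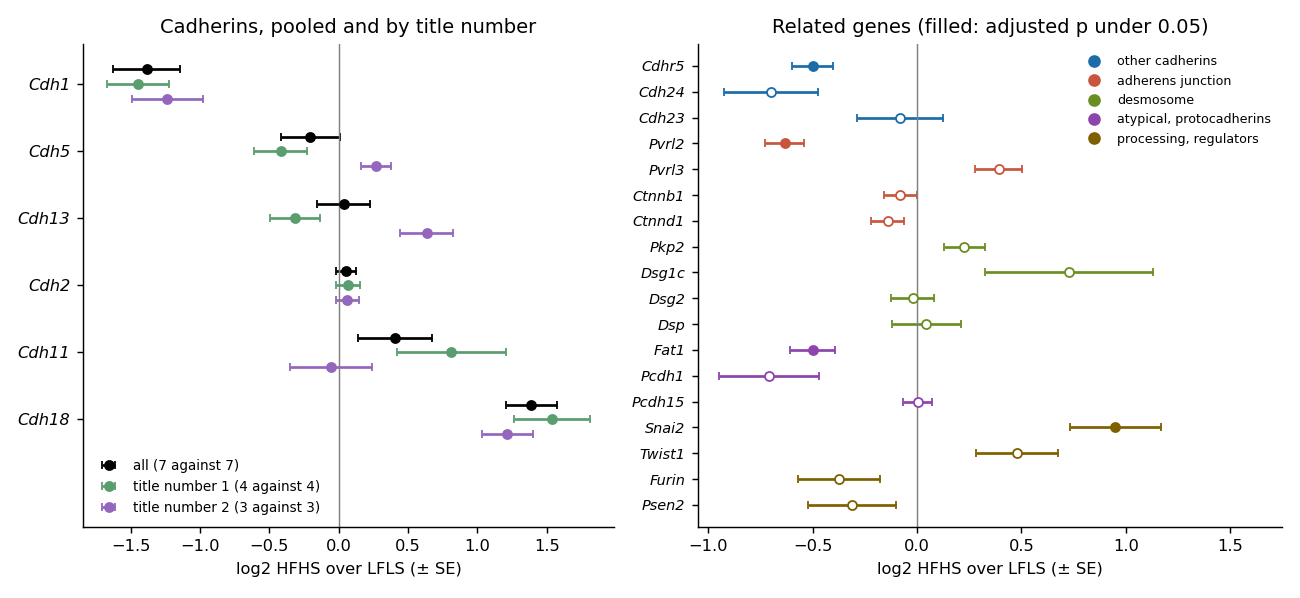
Log2 change from LFLS to HFHS with its SE (horizontal axis), for the 6 tested cadherins pooled and within each title number, and for 18 related genes coloured by list, filled where the adjusted p was under 0.05. Cdh1 and Cdh18 keep their direction within both title numbers, while Cdh5, Cdh11 and Cdh13 lie on opposite sides of 0 in the title numbers.

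The genes most like Cdh1 and Cdh18 were ranked by the correlation of log2 CPM over the 14 libraries after the mean of each diet and title number was removed. Nearest to Cdh1 were Peg10 (r = 0.95), Pbx3 (0.93), Vwa3b (0.93), Creld2 (0.92) and Tmem19 (0.92). Nearest to Cdh18 were Smpdl3a (0.94), Zbtb1 (0.93), Ugp2 (0.92), Gm14121 (0.92) and Ghitm (0.91). These are the highest of 17222 genes each, and the 99th percentile over all genes was 0.80 for Cdh1 and 0.74 for Cdh18. Before the means were removed, r ran from 0.07 (Vwa3b) to 0.84 (Creld2) for Cdh1. For Cdh18 it ran from 0.37 (Zbtb1) to 0.89 (Ghitm). Of the 10 genes, 1 was called for diet, beside 2.81% of all tested genes, and nothing is read from so small a count. It was Ghitm, a mitochondrial membrane protein gene, at 0.45 ± 0.10 (edgeR quasi-likelihood, Benjamini-Hochberg adjusted p = 0.0281).

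After the mean of each diet and title number was removed, their 15 pairwise correlations over 14 libraries ran from -0.56 (Cdh1 and Cdh13) to 0.40 (Cdh1 and Cdh2). With only the diet means removed, Cdh5 and Cdh13 reached 0.72, and with the title number removed as well they were at 0.39.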

How the data were processed

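Liver RNA of 14 mice was measured in 1 library each. Per the labels' protocols, oligo dT-selected RNA was made into TruSeq libraries and sequenced as single reads, and no strand marking is stated. The submitters' processing notes name CASAVA 1.8, TopHat, Bowtie, DESeq and the mm9 build. The authors deposited a table of gene counts whose lowest value is 1, and 11120 of 37681 genes stand at 1 in every library. The authors' deposited results table gave the gene names used here and also holds a mean signal, a fold change, a log2 fold change and p-values, whose groups are lettered without a diet and which are not printed. Groups come from the diet labels. Counts were tested as deposited, without a covariate, with edgeR 4.0.16 in R 4.3.3 (filterByExpr, TMM, quasi-likelihood test, Benjamini-Hochberg over 17223 genes, threshold 0.05). Standard errors are the log2 change divided by the square root of F. The title number was tested in a fit with diet, and the interaction in a fit with both. CPM for correlations used a prior count of 2. CPM per kb used union exon lengths of GENCODE vM21 on GRCm38, which also gave the chromosomes. The promoter came from RefSeq on GRCm38.p6, in a table that holds 1 of the 7 members and is not complete.

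Within a diet the lowest correlation between libraries was 0.933 (log2 CPM over tested genes) and no 2 columns were identical. Precision is limited by the 7 libraries per diet and, for Cdh11 and Cdh17, by counts. Libraries sharing a title code across diets deviated together at r over 0.1 in 4 of 7 pairs, short of every pair. Libraries sharing only a title number across diets are not set apart by that cutoff, since a shared number averaged r = 0.13. The codes were therefore not used as a block in the results. Members and lists were chosen with earlier results of these data known. Named were all 7 members, from each related list the called genes or those of smallest p and highest level, and the 5 genes most like each of Cdh1 and Cdh18. Snai1, Zeb1 and Zeb2 were named in addition, beside Snai2 and Twist1. Alternatives were other size factors, low-count filters, blocks, subsets of libraries, DESeq2 1.42.0 and limma 3.58.1 voom with quality weights, and the interaction alternatives and the low-pancreas subset were chosen after seeing the data. The diet fit was tested on simulated counts, which held no title number effect. How it behaves with such an effect was not tested. The neural marker list is not reported here.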

Additional observations from a re-analysis of the deposited data

Results flagged for a closer look

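Of 50 groups of 7 libraries checked (25 genes on 2 diets), 5 held a library whose gap to its nearest neighbour took more of the group's range than Dixon's 95% critical value, where chance gives about 1 in 20. In HFHS 1, Cdh5 was at 45.5 CPM, while the other 6 HFHS libraries were at 24.4 to 29.4 CPM. The same library had 16.9 CPM of Cdh23, against 7.92 to 11.3 CPM in the others. In HFHS 5, Pvrl2 was at 59.8 CPM, against 43.9 to 49.3 CPM in the other HFHS libraries. In LFLS 1, Snai2 was at 3.85 CPM, against 1.60 to 2.25 CPM, and Psen2 was at 245 CPM, against 76.4 to 122 CPM in the other LFLS libraries.

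The diet difference of Clstn3, which encodes the atypical cadherin calsyntenin-3, differed between title numbers. It was picked out after its values were seen. The interaction was 1.42 (log2) with an adjusted p of 0.0285 by edgeR. Within title number 1 the diet difference was 0.06 ± 0.10 (SE), with 44.9 to 47.9 CPM on LFLS and 41.9 to 53.7 CPM on HFHS. Within title number 2 it was 1.47 ± 0.19, with 14.1 to 23.7 CPM on LFLS and 49.4 to 60.9 CPM on HFHS. Leaving out 1 library at a time gave 1.19 to 1.54 with edgeR adjusted p of 0.00887 to 0.107, and 8 of the 14 omissions lost the call. What the title number marks is not given in the sources used here, and its part in this difference was not tested.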

How the results depend on the processing

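Cdh1 stayed lower and Cdh18 higher on HFHS under all 26 alternatives tried, and the calls of both were lost only in the subsets named here. Cadherins called lower went from 1 to 0 with title number 2 only and in the 7 libraries lowest in pancreas markers, and stayed 1 to 1 without 1 library. Cadherins called higher went from 1 to 0 in those 7 libraries. The 484 genes called for diet became 173 with no filter on low counts, 1540 with the title number as a block, 1484 with title number 1 only, 269 with title number 2 only, 6 in the low-pancreas libraries, 1258 by DESeq2, 3274 by limma voom and 133 to 853 without 1 library. The 4 related genes called became 2 with no filter, 7 with the title number block, 2 with title number 2 only, 0 in the low-pancreas libraries, 12 by voom and 1 to 5 without 1 library. For the title number, the 4953 genes became 2778 to 5514 without 1 library, cadherins called lower, 2 in all libraries, numbered 1 to 2, and cadherins higher from 0 to 1 by DESeq2 (Cdh2). For the interaction, the 152 genes became 1467 by DESeq2 and 0 to 1267 without 1 library, cadherins higher went from 0 to 1 by DESeq2 and 0 to 2 without 1 library, and related genes from 1 to 9 by DESeq2 and 0 to 7 without 1 library. Subsets hold fewer samples; otherwise the cause was not tested.

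Signs turned as follows, of differences not called in all libraries. Cdh2 was -0.0188 in the low-pancreas libraries, Cdh5 0.27 and Cdh11 -0.0533 with title number 2 only, and Cdh13 -0.0044 with no filter, -0.31 with title number 1 only, -0.017 by voom and -0.0556 to 0.18 without 1 library. Cdh23 was 0.18 with title number 2 only, 0.19 in the low-pancreas libraries and -0.25 to 0.0021 without 1 library. Dsg2 was 0.0246 with library totals, 0.0413 with title number 2 only, 0.0896 by voom and -0.0692 to 0.0154 without 1 library. Dsp was -0.25 with title number 1 only, 0.56 and called with title number 2 only, -0.0677 by voom and -0.0336 to 0.14 without 1 library. Pcdh15 was -0.0255 with no filter, -0.0003 with pairs, -0.0289 by voom and -0.0317 to 0.0238 without 1 library. With title number 2 only Furin was 0.0679, against -0.57 and called with title number 1 only, and Psen2 was 0.22. Without 1 library the title number difference of Cdh18 was -0.0559 to 0.14, and the interaction was -0.008 to 0.40 for Cdh1 and -0.0798 to 0.0306 for Cdh2 (-0.0037 by DESeq2). Cdh11 was not tested under the filter of 1 CPM. Depth limits Cdh11 and Cdh17 most.

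With the title code pairs as a replicate block, Cdh1 was -1.36 and Cdh18 1.41, both called, and with the title number as a block they were -1.37 and 1.39. Of the code pairs 4 of 7 deviated together at r over 0.1, the range was -0.07 to 0.42, and 6 of 14 libraries correlated best with their own code. Across diets, libraries of the same title number averaged r = 0.13 and those of different numbers -0.13. Since paired codes also share the title number, these values cannot show whether the codes pair mice.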
